A study of Mus musculus with 1 sample.

Results

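The genes described here are the cathepsins Ctsa, Ctsb, Ctsc, Ctsd, Ctsk, Ctsl, Ctss and Ctsz and the cystatins Cst3 and Cstb, 10 of the 11918 genes listed for 1 library of single alveolar macrophages (AMs). They were taken by gene name, with earlier results of these data known, and all 10 are listed. The library holds sorted lung cells (CD45+CD11c+SiglecF+) of 1 adult Hdac3fl/fl mouse without Cre, labelled wild-type (WT), of an FVB/NJ line crossed to C57BL/6 through more than 10 generations and aged 8 to 12 weeks. The floxed alleles are thus present and undeleted, lungs were digested with collagenase D before the sort, and 5000 cells were loaded for the 10x Genomics 3' assay. A knockout library of the study was not analysed here. With a single library there is no test between mice, no p is given, and all intervals cover counting or the spread over these cells only.

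Cathepsins are proteases of the lysosome, the acidic compartment in which cells break down what they engulf. Most are cysteine proteases, and Ctsd is an aspartic and Ctsa a serine protease. They are made as inactive precursors, carried to the lysosome largely by mannose 6-phosphate receptors, and matured by acid and by other proteases. Cystatins bind and block the cysteine cathepsins, and have no hold on Ctsd or Ctsa. AMs clear surfactant, dust and microbes from the airspace and have a large lysosomal compartment.

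The library gave 7222978 unique molecular identifiers (UMIs, 1 per captured transcript) in 2055 cells, with 1143 to 8603 UMIs and a median of 3278 per cell. The study states that cells over 5% mitochondrial content were excluded, and 384 of the cells listed exceed that share. AM markers were present, with all 11 of 11 listed and summing to 234 UMIs per 10000. Chil3 had a UMI in 100% of cells, Mrc1 in 92.7%, Lpl in 97.6% and Siglecf, a sorting marker of low RNA level, in 41.4%. Markers of other cells were scarce. The 5 listed of 7 monocyte and interstitial macrophage markers summed to 0.129 UMIs per 10000, the 2 listed of 5 dendritic cell markers to 0.0235, the 2 listed of 4 neutrophil markers to 0.478, the 3 listed of 4 B and plasma cell markers to 1.42, and the 5 listed of 5 epithelial markers to 3.51, of which Epcam made 3.02. Jchain made 1.39 of the B and plasma cell sum, with a UMI in 66 cells and 2379 UMIs per 10000 in the highest of them. None of 4 T and NK cell markers was listed.

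Promoter windows are shown for 4 of the genes because their RNA levels moved together (Ctsa with Ctsd) or apart (Ctsk and its neighbour Ctss) across cells, as given below. Each window runs from 250 bases before to 50 after a RefSeq transcription start on GRCm38.p6. RefSeq windows were found for 8 of the 10 genes, and none for Ctsb and Cstb. Ctsa had 2 starts, of which the second is shown and the first holds none of the motifs below. Capitals mark CACGTG, the E-box letters, with the flanks in TCACGTGA where present. TCACGTGA is the form read by the TFEB family that drives lysosomal genes. Capitals also mark ACTTCCTC, the reverse complement of GAGGAAGT, a core bound by the macrophage factor PU.1.
Ctsa, chr2:164833523-164833822, plus strand: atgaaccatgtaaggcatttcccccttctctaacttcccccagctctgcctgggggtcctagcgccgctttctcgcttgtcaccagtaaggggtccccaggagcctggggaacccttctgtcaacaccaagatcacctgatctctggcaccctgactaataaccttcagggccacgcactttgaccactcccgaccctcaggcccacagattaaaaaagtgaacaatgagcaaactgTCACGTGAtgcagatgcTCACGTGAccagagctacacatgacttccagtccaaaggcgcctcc
Ctsd, chr7:142387778-142388077, minus strand: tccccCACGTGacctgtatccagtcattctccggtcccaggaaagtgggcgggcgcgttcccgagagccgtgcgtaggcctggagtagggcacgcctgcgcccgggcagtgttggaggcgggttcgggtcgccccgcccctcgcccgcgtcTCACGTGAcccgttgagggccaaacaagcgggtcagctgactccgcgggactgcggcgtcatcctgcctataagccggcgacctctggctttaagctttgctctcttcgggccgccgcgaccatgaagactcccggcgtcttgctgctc
Ctsk, chr3:95498960-95499259, plus strand: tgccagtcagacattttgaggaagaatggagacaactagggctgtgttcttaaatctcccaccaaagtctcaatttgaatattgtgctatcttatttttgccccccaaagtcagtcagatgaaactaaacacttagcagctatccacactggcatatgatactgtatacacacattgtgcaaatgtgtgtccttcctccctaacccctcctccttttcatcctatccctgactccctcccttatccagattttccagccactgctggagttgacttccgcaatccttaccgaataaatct
Ctss, chr3:95526536-95526835, plus strand: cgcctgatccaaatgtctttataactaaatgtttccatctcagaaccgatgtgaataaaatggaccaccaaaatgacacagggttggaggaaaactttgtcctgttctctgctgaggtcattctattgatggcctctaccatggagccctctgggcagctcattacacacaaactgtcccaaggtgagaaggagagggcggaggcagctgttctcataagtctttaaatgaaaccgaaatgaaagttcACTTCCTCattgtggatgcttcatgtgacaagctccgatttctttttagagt

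CACGTG, which reads the same on both strands, was found in the windows of Ctsa, Ctsd and Ctsl, 3 of the 8 genes with a window, and in 7.15% of all 32851 windows of RefSeq genes. The longer TCACGTGA, which contains it and also reads the same on both strands, was found for Ctsa (2 copies) and Ctsd (1 copy), and in 0.974% of all windows. GAGGAAGT or its reverse complement was found for Ctss and Ctsc and in 3.20% of all windows. TGACTCA, the AP-1 letters, searched on both strands, was in none of the members' windows and in 5.20% of all. The motifs were chosen with the sequences in view, and a match describes the letters of a window and no more.

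On GRCm38 (GENCODE M21), Ctsk (3:95499256-95509362, plus strand) and Ctss (3:95526786-95556403, plus strand) are neighbours with a gap of 17.4 kb. Cst3 (2:148871722-148875692, minus), Ctsa (2:164832873-164841032, plus) and Ctsz (2:174427493-174439039, minus) lie on chromosome 2, and Ctsc (7:88278085-88310888, plus) and Ctsd (7:142375911-142388038, minus) on chromosome 7. Cstb (10:78425669-78427622, plus), Ctsl (13:64359337-64370890, minus) and Ctsb (14:63122462-63145923, plus) are alone on their chromosomes among these genes. The final 300 bases of their coding transcripts, where 3' reads fall, were compared with the transcripts of other genes in windows of 50 bases. No window was shared for 9 of the 10 genes, and 1.08% of windows were for Ctsa. Annotated genes on the same strand overlap Ctsl, Ctss and Ctsd (Gm49230, Hmgb1-ps5 and Gm49369), and none of these is listed in the data.

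Together the 10 genes took 77910 UMIs, 1.08% of the library, and their summed share ranged over cells from 0.248% through a median of 1.02% to 5.43%. The 6 cysteine cathepsins held 56.9% of the UMIs of the 10 genes, Ctsd 20.8%, the cystatins 20.0% and Ctsa 2.31%. The assay takes 1 tag per molecule at the 3' end, so UMIs per 10000 were not divided by gene length. How well each 3' end was captured is not known, and the order below is of captured transcripts.

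Ctss, a cysteine endopeptidase that stays active near neutral pH and trims the invariant chain of MHC class II, was the most abundant, with 35.7 UMIs per 10000 (95% Poisson interval 35.3 to 36.2). It made 58.3% of the UMIs of the cysteine cathepsins and had at least 1 UMI in 99.6% of cells. Over cells its level ran from 0 through a median of 31.9 to 141 UMIs per 10000. Ctsl, an endopeptidase of the same family, reached 2.88 UMIs per 10000 (2.76 to 3.00), with a UMI in 55.8% of cells. Ctsk, the collagen-degrading endopeptidase best known from osteoclasts, stood at 2.26 (2.15 to 2.37). Its median over cells was 0 and its highest value 52.7 UMIs per 10000, or 21 UMIs in a single cell.

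Among the cysteine exopeptidases, Ctsc, the dipeptidyl peptidase that activates granule serine proteases, stood at 7.80 UMIs per 10000 (7.60 to 8.01). Ctsb, which also cuts within chains, stood at 6.58 (6.39 to 6.77) and Ctsz, a carboxypeptidase, at 6.06 (5.88 to 6.24). Each of these 3 genes had a UMI in 82.0% to 86.0% of cells. Ctsd, the aspartic endopeptidase, was second of the 10 with 22.5 UMIs per 10000 (22.1 to 22.8), a UMI in 99.3% of cells and values from 0 through a median of 21.2 to 158. Ctsa, a serine carboxypeptidase that also protects the enzymes encoded by Glb1 and Neu1, stood at 2.49 (2.37 to 2.60). The intervals of Ctsa and Ctsk, the lowest of the 10 with 1796 and 1634 UMIs, just meet.

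Cstb, the cystatin of the cytosol (stefin B), was the more abundant inhibitor, with 12.0 UMIs per 10000 (11.8 to 12.3) and a UMI in 91.4% of cells. Cst3, the secreted cystatin C, stood at 9.56 (9.33 to 9.79) with a UMI in 88.1% of cells. Its lowest value was 0, its median 7.86 and its highest 503 UMIs per 10000, far above the range of any other member. In 1756 cells deep enough to be thinned to 2000 UMIs, the members had shares of cells with a UMI between 30.9% for Ctsk and 99.0% for Ctss. No cell type that lacks these genes was present in number, so their background from free RNA could not be measured. As a gauge, Sftpc, a gene of alveolar epithelium, had a UMI in 6.86% of cells, under the share of every member.

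**Figure D1:**
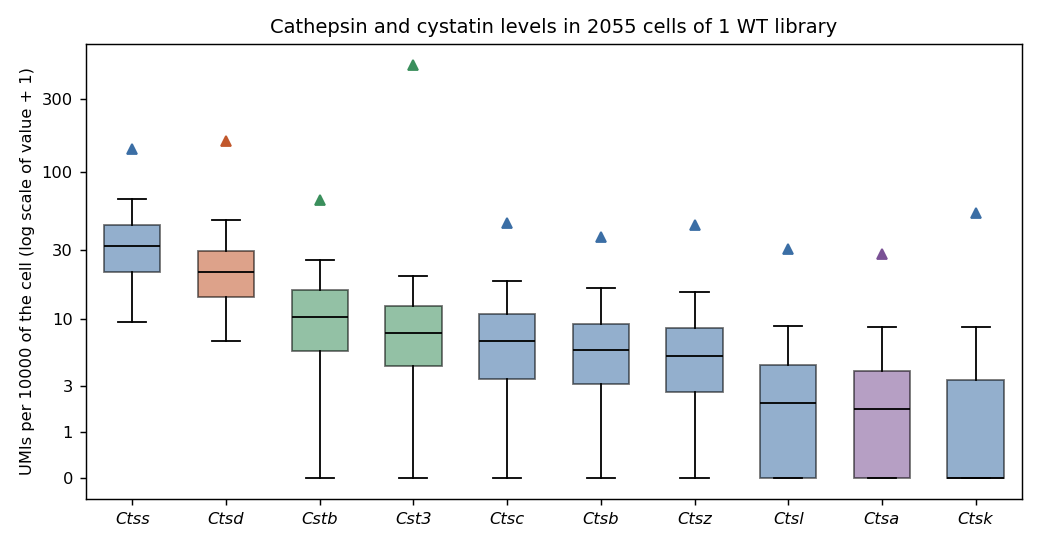
UMIs per 10000 of each cell for the 10 genes (log scale of the value plus 1), with boxes for the quartiles over 2055 cells, a line for the median, whiskers from the 5th to the 95th percentile and a triangle for the highest cell. Blue marks cysteine cathepsins, orange Ctsd, purple Ctsa and green the cystatins. Ctss has the highest median (31.9) and the triangle of Cst3 (503) stands apart from its box.

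Other members of these families were few. Of 14 other cathepsins 3 were listed, and Ctsh, an aminopeptidase, alone reached 0.1 UMI per cell, with 2.26 UMIs per 10000 (2.15 to 2.37), an interval that overlaps that of Ctsk. Of 19 other cystatins and stefins, Cst6 alone was listed, with 4 UMIs in the library. Of 4 other protease inhibitors 3 were listed, with Serpinb1a at 2.40 and Serpinb6a at 1.37 UMIs per 10000.

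Genes that deliver and mature cathepsins were mostly present. Of 9 genes of processing and sorting 8 were listed and 7 reached 0.1 UMI per cell. Igf2r, the other mannose 6-phosphate receptor beside M6pr, was not listed, and Gnptg was below that level. Psap, which encodes prosaposin, stood at 24.0 UMIs per 10000, Grn (progranulin) at 4.02, M6pr (the smaller mannose 6-phosphate receptor) at 3.12, Lgmn (legumain, which cleaves cathepsins into their mature forms) at 2.05, Lrp1 at 1.95, Sort1 (sortilin) at 1.66 and Gnptab at 0.493. All 7 lysosomal membrane genes were at or over that level, led by Laptm5 (8.94), Lamp1 (6.04) and Laptm4a (4.55), with Lamp2 at 2.79, Cd68 at 2.61, Scarb2 at 2.52 and Cd63 at 1.97. Of 10 hydrolases 9 reached it, led by Npc2 (5.57), Asah1 (3.11) and Hexa (3.03), with Lipa at 2.44, Gusb at 1.58 and Man2b1 at 0.709. Of the partners of Ctsa, Neu1 stood at 0.885 and Glb1 was below that level. Of 3 transcription factors of lysosomal genes, Mitf reached it with 0.721, while Tfeb and Tfe3 did not. In MHC class II loading, Cd74 stood at 5.68 and Ifi30, a thiol reductase of the lysosome, at 1.78.

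The spread of each gene across cells was set against what counting alone gives at the depth of each cell. The dispersion ratio is the variance of the share of UMIs over its counting variance, and the excess CV is the coefficient of variation left once the counting variance is taken off. Of 1123 genes with a mean of at least 0.5 UMI per cell, 12.8% had a dispersion ratio of at least 1.5. Among the members 5 of 10 did, and 4 of 10 without the 2 cells described below. They were Ctss (2.87), Ctsd (2.24), Ctsk (1.88), Cstb (1.73) and, with those cells only, Cst3 (6.87). The ratio grows with the level of a gene, so the excess CV is the better scale between genes.

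Ctsk varied most among the proteases, with an excess CV of 1.16 (95% interval over cells 0.925 to 1.39). That is above the excess CV of 97.2% of the other genes whose mean level lies within 2-fold of its own, whose median was 0.338. It had no UMI in 1160 cells, where a single common level would leave 977, and 5 or more in 44 cells, where counting would give 6.97. Both ends of the distribution thus held more cells than a common level gives. Ctsa and Ctsl have means close to that of Ctsk and lower excess CVs, of 0.543 (0.407 to 0.678) and 0.510 (0.379 to 0.642). The value for Ctsa was 0.317 with cells thinned to 2000 UMIs, where Ctsl had 0.472 and Ctsk 1.14. Without the 1% of cells highest in each gene, Ctsa had 0.182, Ctsl 0.249 and Ctsk 0.706.

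The abundant genes were similar to one another. Ctss had an excess CV of 0.424 (0.40 to 0.448), Ctsd of 0.435 (0.385 to 0.485), Ctsc of 0.422 (0.365 to 0.479), Ctsz of 0.397 (0.326 to 0.468) and Cstb of 0.454 (0.411 to 0.496), with overlapping intervals. Ctsb had the lowest, 0.303 (0.230 to 0.375), close to the median of 0.308 for other genes of its level. Ctss had no UMI in 9 cells against 1.58 by counting alone, and 1 UMI in 49 cells against 8.21.

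**Figure D2:**
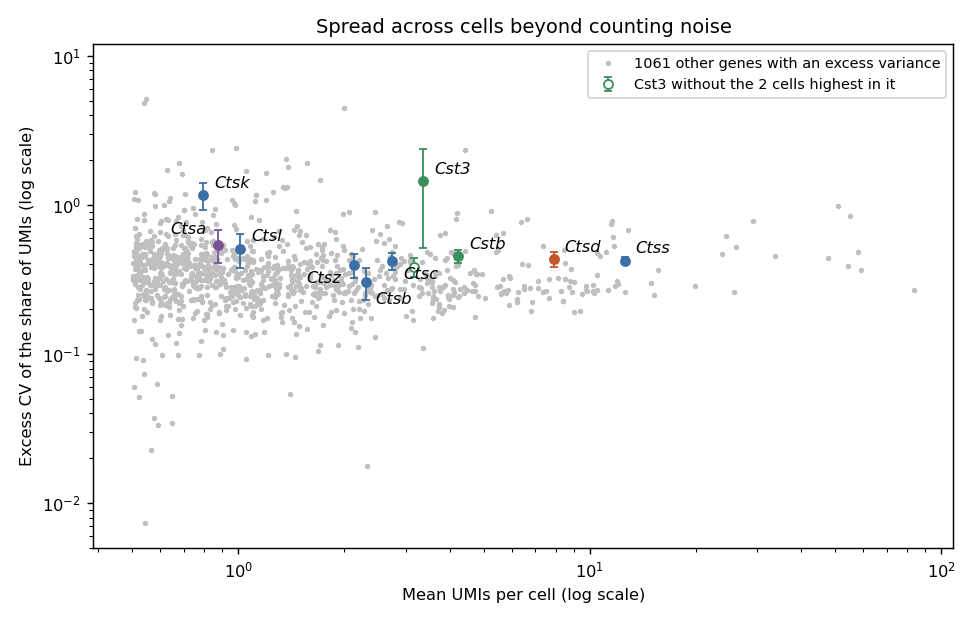
Excess CV of the share of UMIs across cells (log scale) against mean UMIs per cell (log scale) for genes with at least 0.5 UMI per cell and an excess variance. Grey points are other genes, coloured points are the members with 95% intervals over cells, and the open point is Cst3 without the 2 cells highest in it. Ctsk (1.16) and Cst3 with all cells (1.45) lie above most genes of their level.

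The spread of Cst3 rested on 2 cells. With all cells its excess CV was 1.45 (0.516 to 2.39), and without these 2 cells it was 0.385 (0.327 to 0.444), in the range of the other members. The cells held 199 of 3956 and 215 of 6667 UMIs on Cst3, or 503 and 322 UMIs per 10000, and the next highest cell had 52.8. Together they carried 6.00% of all Cst3 UMIs in the library, and without them the level of Cst3 was 9.0 UMIs per 10000.

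Both cells were rich in MHC class II transcripts and poor in AM markers. Cd74, the invariant chain, stood at 533 and 526 UMIs per 10000 against 4.91 in the other cells combined, H2-Aa at 164 and 178 against 1.28, and H2-Ab1 at 167 and 210 against 1.27. The 11 AM markers summed to 25.3 and 28.5 UMIs per 10000, where the other cells had a median of 223. Siglecf, Itgax and Krt79 had no UMI in either cell, and neither did the dendritic cell markers Ccr7 and Zbtb46, the 2 listed of the 5 on that list. Ccr7 had a UMI in only 7 cells of the library and Zbtb46 in 2, so their absence here cannot tell cell types apart. Ctss, with 2.53 and 13.5 UMIs per 10000, was below its median over cells of 31.9, Ctsd was at 10.1 and 9.0 against 21.3, and Ctsl had no UMI in either. Ratios to the other cells were taken for genes seen in both cells, with a small constant added to each level. The constant lowers the ratio of genes near 0 elsewhere. The largest after H2-Ab1, H2-Eb1, Cd74 and H2-Aa were, in order, Ifi205, Cst3, Cd83, Cadm1, Marcks, Crip1, Aif1 and Clec9a. These genes were chosen after their values were seen. Among them, Cadm1, Ifi205, Aif1, Clec9a and Marcks had a UMI in 1, 4, 10, 14 and 20 of the other cells. No cell type name is given to a pair of cells.

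**Figure D3:**
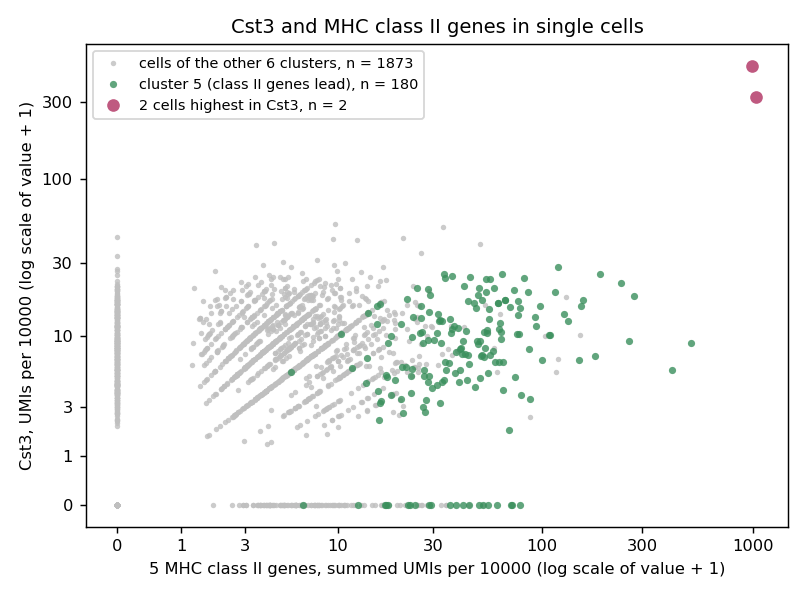
Cst3 against the summed level of 5 MHC class II genes in each cell, both in UMIs per 10000 on a log scale of the value plus 1. Grey points are cells outside cluster 5, green points the other 180 cells of cluster 5 and red points the 2 cells highest in Cst3. These cells have 503 and 322 UMIs of Cst3 per 10000 and 988 and 1042 of class II genes.

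Outside these cells Cst3 had a much lower correlation with the class II sum. Its correlation there was higher with H2-DMa than with the other genes of the sum. The correlation of Cst3 with the summed class II genes was 0.78 over 2055 cells and 0.18 (0.09 to 0.28) over 2053. Over the 2053 cells it was 0.16 (0.07 to 0.25) with Cd74, 0.10 (0.01 to 0.20) with H2-Aa, 0.11 (0.01 to 0.21) with H2-Ab1, 0.09 (-0.01 to 0.20) with H2-Eb1 and 0.71 (0.41 to 1.00) with H2-DMa. H2-DMa, part of the chaperone that loads peptides, thus stood apart from the class II molecule and invariant chain genes. The same sum had a correlation of 0.23 (0.13 to 0.34) with Ctss, 0.17 (0.10 to 0.24) with Ctsc, -0.05 (-0.11 to 0.01) with Ctsd and 0.04 (-0.03 to 0.10) with Ctsk over the 2053 cells.

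Which proteases vary together was read from the correlation of the shares of UMIs across cells, with the counting variance taken off. Points share a library, their UMI total as denominator and base composition, and no p is given. The estimate is not bounded by 1 and is loose for Ctsa, Ctsl and Ctsk, which have few UMIs. Over 2053 cells, 33 of the 45 pairs of members had a correlation of at least 0.2 and 0 had one of -0.2 or less. Among 124750 pairs of genes with a measurable excess variance, 19.6% reached 0.2 and 16.5% lay at -0.2 or less. The median was 0.29 for the pairs of members and -0.01 for those pairs of genes. With the 2 cells included, 26 of 45 pairs of members reached 0.2 and the median was 0.23, and all 9 pairs of Cst3 were then under 0.1.

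The first set that moved together was Ctsb, Ctsd, Ctsa and Ctsz. The correlation over 2055 cells was 0.75 (0.54 to 0.97) for Ctsb and Ctsd, 0.65 (0.44 to 0.85) for Ctsa and Ctsd, 0.58 (0.41 to 0.75) for Ctsd and Ctsz, 0.57 (0.25 to 0.89) for Ctsa and Ctsz, and 0.47 (0.12 to 0.82) for Ctsa and Ctsb. For Ctsb and Ctsz it was 0.52 (0.21 to 0.82), but 0.03 with cells thinned to 2000 UMIs and 0.06 in the 686 cells of intermediate UMI total (2668 to 3933), where Ctsa and Ctsz had 0.13. Ctsa and Ctsd are the members whose windows hold TCACGTGA, the window of Ctsz holds no CACGTG, and Ctsb had no window. Ctsl, whose window holds CACGTG, had 0.29 (0.12 to 0.46) with Ctsd and 0.09 (-0.19 to 0.36) with Ctsa. A tie between motif and correlation was not tested. The 25% of cells with the most Ctsd had 3.41 UMIs of Ctsa per 10000 and the 25% with the least 1.81, a ratio of 1.89 (1.64 to 2.17). The ratio was 1.49 (1.37 to 1.62) for Ctsb and 1.42 (1.31 to 1.55) for Ctsz. It was 1.52 (1.45 to 1.58) for Psap, whose product is sorted to the lysosome by several of the same receptors. The 25% with the most Ctsd had a median of 3.77% mitochondrial UMIs and 2893.5 UMIs, against 3.07% and 3328 in the 25% with the least, and the part of these in the ratios was not tested. In cells with at most 5% mitochondrial UMIs the correlation of Ctsb and Ctsd was 0.72. Of the 45 pairs of members, 6 moved by more than their spread in those cells. Values there for the other pairs of this set are not reported here.

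A second set joined Ctss, Ctsl and Ctsz, with a correlation of 0.54 (0.37 to 0.71) for Ctsl and Ctss, 0.60 (0.32 to 0.89) for Ctsl and Ctsz, and 0.49 (0.36 to 0.62) for Ctss and Ctsz. The 25% of cells with the most Ctss had 1.75 times (1.53 to 2.00) as much Ctsl as the 25% with the least and 1.41 times (1.29 to 1.54) as much Ctsz. Ctsd was 1.19 times (1.14 to 1.25) and Ctsb 1.21 times (1.11 to 1.31) as high there. Cst3 moved with these genes once the 2 cells were left out. Its correlation with Ctss was then 0.59 (0.46 to 0.71), with Ctsz 0.41 (0.21 to 0.62) and with Ctsl 0.33 (0.07 to 0.60), and its level was 1.54 times (1.43 to 1.66) as high in the 25% with the most Ctss as in the 25% with the least. The 25% with the most Ctss had a median of 3715 UMIs per cell and the 25% with the least 2677. The share of Ctss, with counting noise left in, had a correlation of 0.22 with the UMI total. The part of depth in these ratios was not tested.

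Ctsk and Ctss, though neighbours on the chromosome, varied apart, with a correlation of 0.02 (-0.06 to 0.09). The 514 cells with the most Ctsk had 34.9 UMIs of Ctss per 10000 and the 1160 cells without Ctsk had 35.1, a ratio of 0.993 (0.963 to 1.02). These groups had close depths, with medians of 2908 and 2951 UMIs. Ctsk moved instead with Ctsl (0.43, 0.23 to 0.63), Ctsb (0.42, 0.23 to 0.61), Ctsz (0.40, 0.24 to 0.56) and Cstb (0.31, 0.20 to 0.42). Between the same groups of cells Ctsl was 1.25 times (1.13 to 1.38), Lgmn 1.25 times (1.10 to 1.41), Cstb 1.19 times (1.13 to 1.25) and Ctsb 1.16 times (1.09 to 1.25) as high. Ctsc had a ratio of 0.988 (0.925 to 1.05).

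Ctsc, the dipeptidyl peptidase, stood apart from Ctsb and Ctsd. Its correlation was -0.05 (-0.29 to 0.19) with Ctsb, 0.04 (-0.08 to 0.17) with Ctsd, 0.00 (-0.12 to 0.12) with Ctsk and -0.11 (-0.24 to 0.02) with Cstb. With Ctsz it was 0.47 (0.24 to 0.69) and with Ctss 0.32 (0.22 to 0.43). Between the 25% of cells with the most and the least Ctsd, the level of Ctsc had a ratio of 0.942 (0.872 to 1.02), where Ctsb, Ctsz and Ctsa had 1.42 or more. Cells rich in Ctsd therefore also had a different mix of these transcripts.

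The cystatins did not follow one another closely, with a correlation of 0.20 (0.06 to 0.34) without the 2 cells. Cstb moved with Ctsl (0.49, 0.30 to 0.67), Ctsb (0.34, 0.14 to 0.55) and Ctsk (0.31, 0.20 to 0.42), and its correlation was 0.08 (-0.02 to 0.17) with Ctsd and -0.01 (-0.18 to 0.16) with Ctsa, which it does not block. With Ctsc, a cysteine cathepsin, it was -0.11, the lowest of all pairs. Cst3 had, without the 2 cells, 0.23 with Ctsd, which is not a target, and 0.05 with Ctsk, which is one. It had 0.24 with Ctsb and 0.21 with Ctsc, which are targets, and 0.04 (-0.20 to 0.27) with Ctsa, which is not. Cstb had 0.28 (0.10 to 0.46) with Ctsz, a target. Whether the pairs sort by which proteases the cystatins block was not tested. Ctss, the most abundant target, had a correlation of 0.59 with Cst3 and 0.23 with Cstb.

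**Figure D4:**
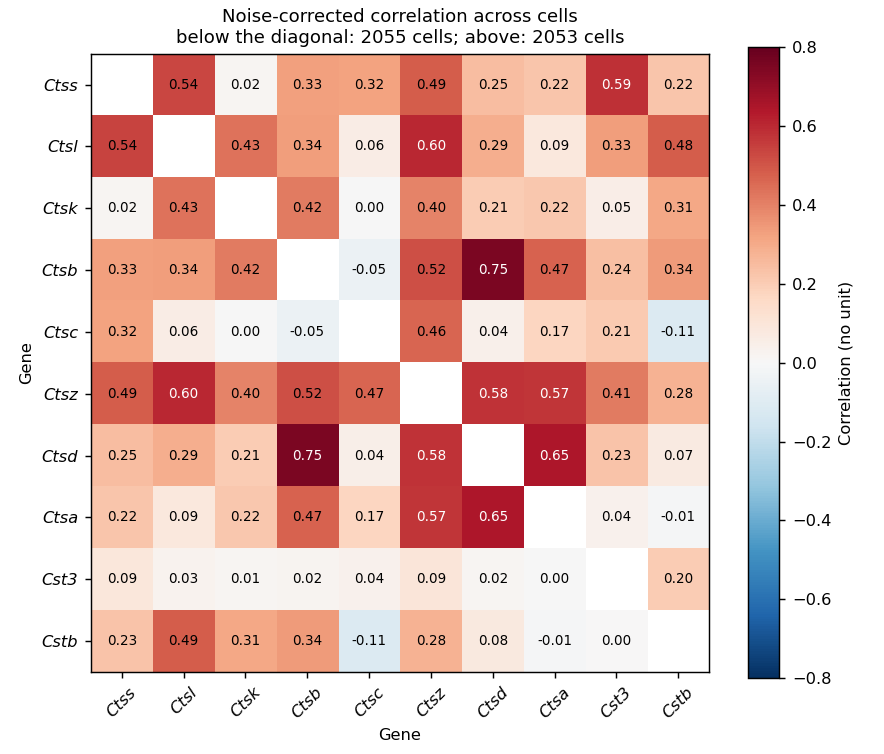
Noise-corrected correlation of the shares of UMIs across cells for every pair of members, from blue (negative) through white to red (positive). The triangle below the diagonal uses all 2055 cells and that above it leaves out the 2 cells highest in Cst3. Ctsb with Ctsd (0.75) is the reddest square, Ctsk with Ctss (0.02) is near white, and the squares of Cst3 differ between the triangles.

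Taking the mean of each cluster of cells off before the correlation left 0.71 for Ctsb and Ctsd, 0.61 for Ctsa and Ctsd, 0.53 for Ctsl and Ctss, and 0.02 for Ctsk and Ctss. These values are thus close to those across all cells. On the deposited log values, with the counting noise left in, the values were lower, at 0.14 for Ctsb and Ctsd and 0.20 for Ctsl and Ctss, with 0.04 for Ctsk and Ctss.

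Genes most like each member were sought among those with at least 0.5 UMI per cell. As first set, the search returned mostly genes with an excess variance near 0, for which the correlation has no interpretable value. It was therefore repeated, a choice made after seeing the data, among 500 genes whose excess variance was at least 3 of its standard errors, over 2053 cells. For Ctsb these were Ctsd, Psap (0.67) and Lipa (0.61), the lysosomal acid lipase, and for Ctsd they were Ctsb, Ctsa and Psap (0.61). For Ctsa they were Axl (0.73), Fcgrt (0.68) and Ctsd. Ctsk was nearest Anxa5 (0.56), Cd68 (0.48) and Ctsl, and Ctsl nearest Ctsz, Cd68 (0.58) and Lgals3 (0.57). For Ctss they were Lyz2 (0.69), Fcer1g (0.63) and B2m (0.62). Ctsc was nearest the class II chaperone gene H2-DMa (0.66), Trf (0.54) and H2-D1 (0.51), and Ctsz nearest Cd68 (1.34, past 1 and so imprecise), H2-D1 (0.88) and Clic1 (0.76). Cstb was nearest Anxa5 (0.66), Lgals3 (0.58) and Txn1 (0.56), and Cst3 nearest Fxyd5 (0.76), H2-DMa (0.71) and Tyrobp (0.69).

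Of the lists of membrane, hydrolase and sorting genes, 10 genes had an excess variance large enough for the same measure. Ctsd had a correlation of at least 0.2 with 10 of 10 (median 0.33) and Ctsb with 9 of 10 (median 0.33). Ctsa, Ctsk and Ctsl reached it with 6 of 10 each, Cstb with 6, Ctsz with 5, Ctss with 4, and Ctsc and Cst3 with 2 each, beside 19.6% of all pairs of genes. Psap had a correlation of 0.08 with Ctss and -0.17 with Ctsc. Cd68, a membrane glycoprotein of the lysosome, reached 0.2 with all 10 members and Lgmn with 6 of them.

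Cells were also compared between 7 clusters, which were built without the 10 genes so that their levels took no part in them. Cluster 7 (111 cells) was led by cycling genes such as Top2a, Stmn1 and Birc5. Of the 10 members 9 were lower in it than in all other cells, with an interval of the ratio below 1, as were 32.8% of the 1123 genes with at least 0.5 UMI per cell. None of the members had an interval above 1, where 15.5% of these genes did. The median ratio was 0.729 for the members and 0.939 for all these genes. The ratios of the 9 members ran from 0.624 (0.577 to 0.673) for Ctsd to 0.871 (0.777 to 0.973) for Ctsc. Ctsd stood at 14.4 UMIs per 10000 and Ctss at 24.5, a ratio of 0.670 (0.632 to 0.710). Cstb had a ratio of 0.710 (0.642 to 0.783), Ctsz of 0.687 (0.595 to 0.791) and Ctsb of 0.750 (0.656 to 0.853). Ctsk differed from them, with 2.66 UMIs per 10000 and a ratio of 1.19 (0.988 to 1.43). Psap, at 0.820 (0.767 to 0.875), was lower too, and Lgmn had a ratio of 1.03 (0.832 to 1.26). These cells had a median of 4186 UMIs, the highest of the clusters, and their AM markers summed to 183 UMIs per 10000, the lowest of the clusters, and the part of either in the ratios was not tested.

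Cluster 4 (216 cells), led by Txnip, Clec2d and Tsc22d3, had the highest levels of the set around Ctsd. Ctsa was 1.42 times (1.23 to 1.62), Ctsd 1.37 times (1.31 to 1.44), Ctsb 1.32 times (1.21 to 1.44), Ctsz 1.22 times (1.11 to 1.34), Cst3 1.13 times (1.05 to 1.22; 1.21 without the 2 cells) and Ctss 1.2 times (1.16 to 1.25) as high as in all other cells. Ctsc (1.05, 0.960 to 1.14), Ctsl (1.04, 0.897 to 1.2), Cstb (0.969, 0.901 to 1.04) and Ctsk (0.897, 0.750 to 1.07) had intervals that include 1. The share of all genes with an interval above or below 1 was not counted for this cluster or those below. Whether the members differ from other genes in these clusters is therefore not known. The median mitochondrial share was 3.91%, the highest of the clusters, and AM markers summed to 285 UMIs per 10000, also the highest. The part of these in the ratios was not tested.

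Cluster 5 (182 cells) was led by MHC class II genes. Ctss, which trims the invariant chain, stood at 44.4 UMIs per 10000 in it, 1.27 times (1.22 to 1.32) its level elsewhere, and Lgmn was 1.25 times (1.06 to 1.47) as high. Ctsc had a ratio of 1.14 (1.05 to 1.24). Cst3 stood at 16.2 UMIs per 10000, a ratio of 1.83 (1.72 to 1.95), and without the 2 cells, both in this cluster, at 10.3, a ratio of 1.16 (1.07 to 1.25). Ctsb (0.941), Ctsd (0.957), Ctsk (0.974), Ctsl (1.04), Ctsz (1.04), Ctsa (1.04) and Cstb (1.06) had intervals that include 1.

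Cluster 6 (127 cells), led by Cxcl2, Tnf and Cxcl1, had less Ctsd than all other cells, with 19.3 UMIs per 10000 and a ratio of 0.848 (0.791 to 0.907). Ctss had a ratio of 0.943 (0.895 to 0.992), Ctsk of 0.798 (0.633 to 0.995), Psap of 0.866 (0.811 to 0.924) and Lgmn of 0.774 (0.604 to 0.978). The other members had intervals that include 1. Cluster 2 (557 cells), led by Cd63, Crip1 and Wfdc17, had the highest level of Ctsk, with 2.72 UMIs per 10000 and a ratio of 1.30 (1.17 to 1.45). Its counting interval overlaps that of cluster 7. In the same cells Cstb was 1.17 times (1.12 to 1.23), Ctsl 1.12 times (1.01 to 1.23) and Ctsb 1.11 times (1.04 to 1.18) as high. Ctsz was 1.11 times (1.04 to 1.18) and Ctsd 1.08 times (1.05 to 1.12) as high. Cst3 had a ratio of 0.947 (0.897 to 0.999), or 1.03 (0.973 to 1.09) without the 2 cells. The intervals of Ctsa, Ctsc and Ctss include 1. The share of all genes with such intervals was counted for cluster 7 only. Clusters 1 (607 cells, led by Hspa1b and Rhob) and 3 (255 cells, led by Slc39a1 and Actb) had ratios between 0.792 (Ctsk in cluster 1) and 1.03 (Ctsz in cluster 3). In cluster 1 the intervals of Ctsb, Ctsd, Ctsk, Ctss, Ctsz, Cst3 and Cstb lay below 1. In cluster 3 those of Ctss and Cst3 did, though without the 2 cells that of Cst3 includes 1. All other intervals in both clusters include 1.

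**Figure D5:**
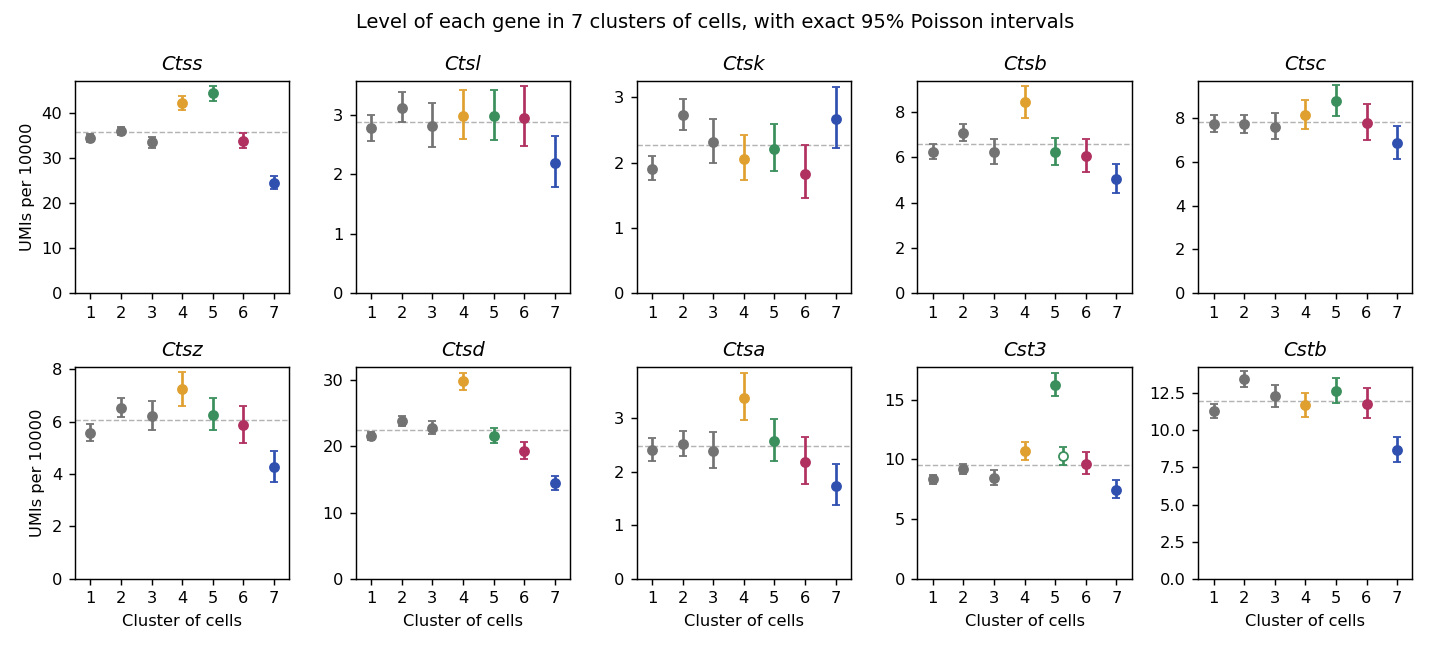
UMIs per 10000 of each member in 7 clusters of cells, with exact 95% Poisson intervals that cover counting only, and a dashed line for the level in all cells. The open point for Cst3 leaves out the 2 cells highest in it. Cluster 7, led by cycling genes, is the lowest for 9 of the 10 genes, with Ctss at 24.5 and Ctsd at 14.4, while its Ctsk is at 2.66.

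Depth and mitochondrial share were also compared with the members. The correlation of the share of UMIs with the UMI total of a cell was 0.22 for Ctss, 0.15 for Cstb and -0.16 for Ctsd, and within 0.08 of 0 for the other 7. With the mitochondrial share it was 0.28 for Ctsd, 0.22 for Ctsz, 0.15 for Ctsa and -0.12 for Cstb. These are plain correlations of measured values over 2055 cells of 1 library, given as a description. Counting noise was left in and lowers them, so they are not on the scale of the correlations between members. In cells with at most 5% mitochondrial UMIs the excess CV fell below its interval for Ctsd (0.342) and Ctsz (0.282). It stayed within its interval for the other 8 members.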

How the data were processed

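Single-cell RNA-seq of sorted AMs was available as 1 library. Per the study's methods, the authors aligned reads to mm10 with Cell Ranger 2.1 and counted UMIs per gene and cell. They describe filters on cells (under 300 or over 2500 genes, over 5% mitochondrial content) and on genes (seen in under 3 cells, ribosomal, Y-linked, Xist, Hbb). Ribosomal genes and Xist are nonetheless listed in the data, with Rpl41 at 25.7 and Xist at 4.41 UMIs per cell. They count in the UMI totals used here. The deposited values are the natural log of 1 plus UMIs per 10000 of the cell, made with Seurat. A second deposited file gives each gene a scaled score in each cell, regressed on the UMI total and mitochondrial share and capped at 10. No doublet caller was run, and cells were taken as deposited.

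UMIs were recovered from the log values, which were whole multiples of a single step in each cell within a tolerance of 0.02 for 100% of values. Levels are summed UMIs per 10000 with exact Poisson or binomial intervals, and ratios between groups of cells carry exact conditional intervals. Both cover counting error only, and PCR and capture add to it. Spread and correlation were computed on the shares of UMIs with counting variance removed, with analytic 95% intervals over cells. Clusters came from 15 principal components of the scores of 500 variable genes, members left out, with 30 neighbours and a resolution of 0.8 in Seurat 5.3.0 (R 4.3.3). Other steps used Python 3.11.15, numpy 2.4.6, scipy 1.17.1, pandas 2.3.3 and matplotlib 3.10.9. The estimators were tested on simulated data.

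With 1 library no test between mice was possible. All 10 members are named. Genes of each list are named from 0.1 UMI per cell, except some hydrolases that are counted but not reported here by name, and for each member the 3 genes with the highest correlation are given. The members, lists and motifs were chosen with earlier results of these data known. A list of 4 genes from those results (Ctsk, Cd63, Wfdc17, Crip1) summed to 12.6 UMIs per 10000, 8 cycling genes to 5.05, 5 class II genes to 12.5 and 7 chemokine and TNF genes to 19.8. Alternatives were other scales, denominators, depths, cell filters and clusterings, and, chosen after seeing the data, leaving out the 2 cells highest in Cst3, taking off cluster means, and the limit on excess variance for the most similar genes.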

Additional observations from a re-analysis of the deposited data

How the results depend on the processing

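The share of UMIs taken by the 10 genes was 1.08%, and it was 1.06% as a mean over cells, 1.12% without mitochondrial genes in the denominator and 1.07% in the 1671 cells with at most 5% mitochondrial UMIs. The median excess CV of the members was 0.444, and 0.293 without the 1% of cells highest in each gene. The median correlation of the pairs was 0.23, with 0.0582 on the scaled scores and 0.40 without the 1% of cells highest in either gene. Leaving out cells by the measured count also removes the upper tail of counting noise, by construction. Of 45 pairs, 26 reached 0.2, against 1 on the log values and 0 on the scaled scores, both of which keep the counting noise. In the 686 cells of intermediate UMI total, 23 of the 45 pairs moved by more than their spread, with a median of 0.23 as before and 25 pairs at or over 0.2. Among them, Ctsa with Ctsc went from 0.17 to -0.24, Ctsc with Ctsd from 0.04 to -0.22, Ctsc with Ctss from 0.32 to 0.09 and Ctsb with Ctsz from 0.52 to 0.06, while Ctsb with Ctsd was 0.67 and Ctsl with Ctss 0.41. The cause was not tested. Levels in the cycling, class II and chemokine clusters held at resolutions of 0.4 and 1.2, and with members kept among the variable genes, for all 30 ratios. The ratio of Cst3 in the class II cluster moved without the 2 cells, from 1.83 to 1.16, and its excess CV from 1.45 to 0.385. Ctsa, Ctsl and Ctsk have means near 1 UMI per cell or below, so their pairs are the least precise. No paired analysis was possible because there is 1 library.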
